A study of Rattus norvegicus with 24 samples.

Results

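The effect of 2 weeks on a high-salt (HS) against a low-salt (LS) diet was examined in the salt-sensitive SS rat, on the 6 arrays of the series' 24 that set kidney RNA of SS on HS against RNA of SS on LS. These arrays form 3 replicates, each hybridised on a forward and a dye-swap array, and the arrays of a replicate were averaged to 1 log ratio per probe. Of 1561 probes with a value anywhere in the series, 1310 had a value in at least 2 of the 3 SS replicates and were tested, 1179 of them in all 3. The tested probes included 1104 with 1 gene symbol. No strain is named in 5 of the 6 array titles, which give the diets and a replicate mark. The other title begins as those of strain 13 do, but both of its channels are described as SS, and the array was assigned accordingly. Comparison values came from 6 further arrays of the same diets and time in strain 13. What HS, LS and 13 stand for is known from the study and not from the labels, as is the fact that strain 13 carries the SS background with chromosome 13 of another strain. The labels give the tissue as kidney and the series title as renal medulla, and they do not say whether replicates were separate animals or pools, nor the animals' age or the salt content of the diets. The p-values rest on a spread pooled over all 12 RNA pairs of the series, 1 pair being the 2 arrays of a replicate. Of these, 9 lie outside the SS diet comparison, in strain 13 on both diets and in strain 13 against SS on each diet. The p-values do not measure the SD of the 3 SS values printed beside them, and the pooled spread may be technical.

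The SS rat raises its blood pressure when fed salt, and its kidney develops scarring, with collagen deposited between tubules and around vessels. The renal medulla sets final sodium and water excretion through the thick ascending limb and the collecting duct, and its cells hold inositol, sorbitol and other osmolytes against the salty interstitium. Collagen-rich matrix is laid down by fibroblasts and smooth muscle-like cells and remodelled by metalloproteinases, which TIMP proteins inhibit.

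The deposited values are log ratios whose base is not given in the sources used here, so differences are given as log ratios and not as folds. A positive value is read as higher on HS. This direction is likely and not settled: of the titles that name their channels only 1 is of a diet array, the word order of all titles puts LS first, and the relation among the 4 comparisons of the series fixes only their relative signs, so that all signs could turn at once. Each SS array held between 943 and 1303 values, with an SD over probes between 0.24 and 0.34 and a median between -0.02 and 0.02. Because the arrays give ratios and no levels, the tissue could not be checked by level, but the tubule transcripts Umod, Slc12a1, Lrp2 and Kap each had values on all 6 arrays.

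Replicate 1 stood apart. Across probes, replicates 2 and 3 correlated at r = 0.56 (1249 probes), replicates 1 and 2 at 0.195 (1230 probes) and replicates 1 and 3 at 0.0225 (1189 probes), where probes are not independent replicates. Within replicate 1 the forward and dye-swap arrays correlated at -0.264 over 904 probes, against 0.412 in replicate 2 and 0.523 in replicate 3. Its forward array followed the forward array of replicate 2 (0.518) and its dye-swap array the dye-swap array of replicate 2 (0.351). Whether 1 array of replicate 1 carries the wrong sign as deposited could not be settled, and every replicate 1 value and mean below takes both arrays as deposited. With its dye-swap array turned, 1 probe was called, Col2a1, in place of the 37 of the fit described next. Col2a1 had no value on that array, so turning it could not change the Col2a1 values. The calls lost and gained without replicate 1 are given after the count and beside the lists.

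**Figure D1:**
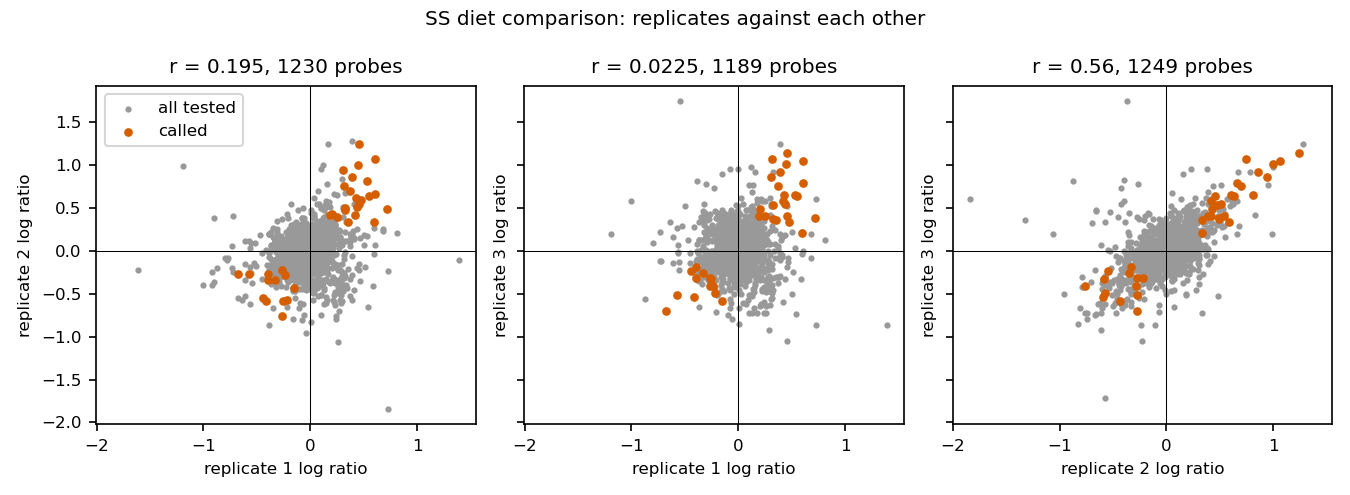
Log ratios of high over low salt in SS rats (base not given), 1 replicate on each axis of each panel, for all tested probes (grey) and the 37 called probes (orange). Replicates 2 and 3 follow each other (r = 0.56), while replicate 1 follows replicate 2 weakly (0.195) and replicate 3 hardly at all (0.0225).

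With limma fitted to the 12 RNA pairs of the series, 37 of 1310 probes (2.82%) had an adjusted p under 0.05, of which 24 (1.83%) were higher and 13 (0.992%) lower on HS. The fit takes the 12 RNA pairs as independent. Yet deviations from the group means in SS diet pairs and strain pairs on HS of the same number correlated at -0.63, -0.56 and -0.29. The p-values of this fit, here and below, may therefore be too small. Unadjusted p-values under 0.05 were found for 255 probes (19.5%), of which 153 (11.7%) were higher and 102 (7.79%) lower. The median log ratio over all tested probes was -0.01, with 630 above 0 and 678 below. The count rested on replicates 2 and 3: it was 57 without replicate 1, 27 of them among the 37, and 0 without replicate 2 or without replicate 3. The 10 calls lost without replicate 1 were Dnase1, Glp1r, Got1, Aldh1a1, Pcsk6, RT1-DMa, Cyba, Isyna1, Vegfa and Tmbim6, with limma adjusted p-values there from 0.0509 (Glp1r and Isyna1) to 0.117 (Cyba) and the same direction. The count was also 0 when the 3 SS values were fitted alone, and 5 in a fit of the SS and strain 13 diet pairs. Of the 1179 probes with 3 values, 490 (41.6%) had the same sign in all 3, and all 36 called probes with 3 values did. The called probes were chosen on these same values, which fixes much of this. The median size of a called log ratio was 0.395 in replicate 1, 0.51 in replicate 2 and 0.515 in replicate 3.

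**Figure D2:**
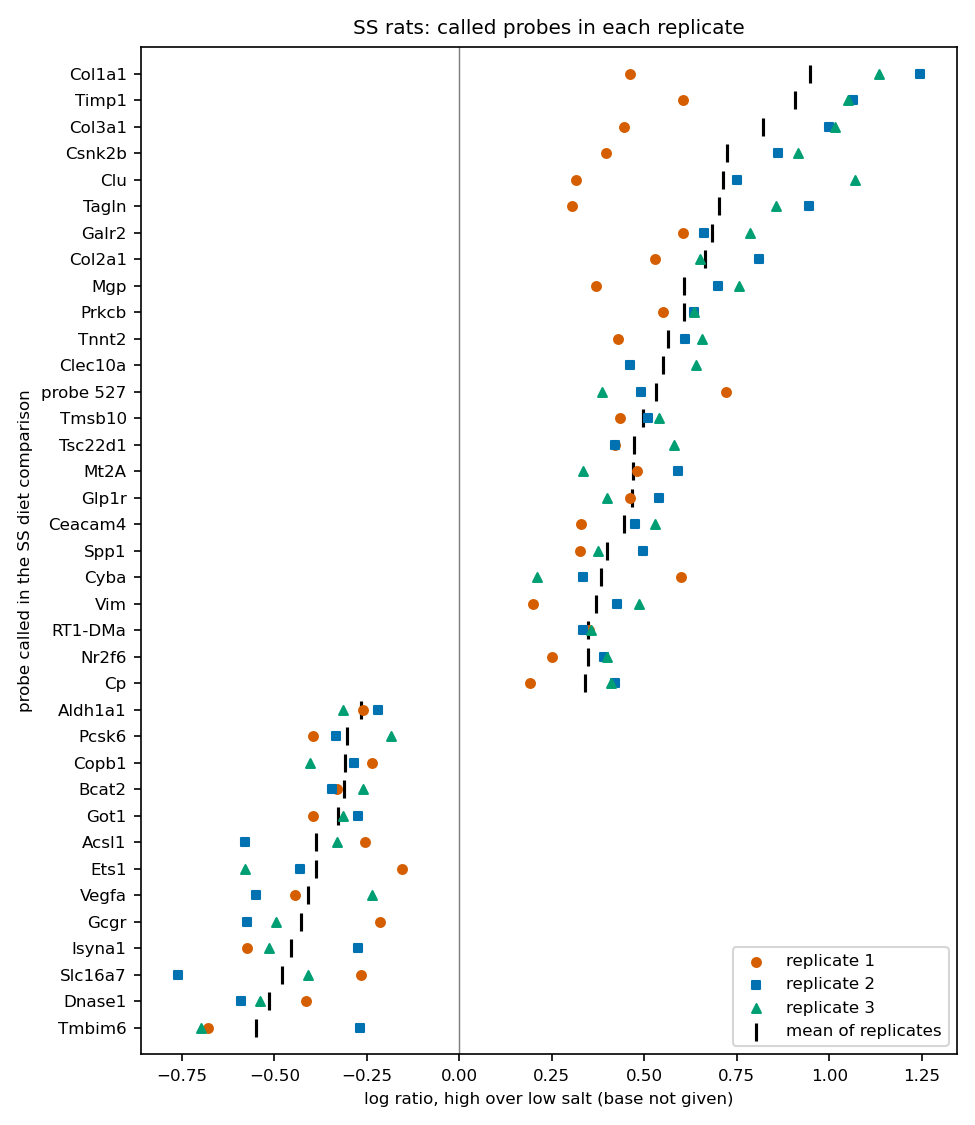
Log ratio of high over low salt (base not given) of the 37 called probes in each of the 3 SS replicates, with their mean as a black tick. Col1a1, Timp1 and Col3a1 lie highest and Tmbim6 lowest, and for the highest genes replicate 1 lies below the other replicates.

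Transcripts of the collagen-rich matrix had the largest log ratios among the called genes. Col1a1, the main chain of type I collagen, had log ratios of 0.46, 1.245 and 1.135 in replicates 1 to 3 (0.95 ± 0.43, SD, n = 3, limma adjusted p = 0.0105). It was above 0 on all 6 arrays, with the lowest value in replicate 1. Col3a1, type III collagen, had 0.445, 1.00 and 1.015 (0.82 ± 0.32, limma adjusted p = 0.0105), and it shared with Col1a1 the low replicate 1. Col2a1, the collagen best known from cartilage, had 0.53, 0.81 and 0.65 (0.66 ± 0.14, limma adjusted p = 0.0105). Its replicates lay closer together than those of the other collagens called, but its replicate 1 value rests on the forward array alone. Col5a2, which joins type I fibrils, had -0.075, 0.385 and 0.95 and did not pass (limma adjusted p = 0.238). Of the 4 collagens measured 3 rose and 0 fell, with a median of 0.74.

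Of 16 other matrix proteins and proteoglycans 2 rose, 0 fell and 14 did not pass, with 12 above 0 and a median of 0.21. Mgp, matrix Gla protein, an inhibitor of calcification, had 0.37, 0.70 and 0.755 (0.61 ± 0.21, limma adjusted p = 0.0105). Spp1, the secreted phosphoprotein osteopontin, had 0.325, 0.495 and 0.375 (0.40 ± 0.09, limma adjusted p = 0.0179). Both genes were above 0 on all 6 arrays. Eln, the precursor of elastic fibres, had a mean as high as that of Mgp with 0.10, 0.95 and 0.77, but only 3 arrays held a value and it did not pass (limma adjusted p = 0.095). Fn1, fibronectin, was lowest in the list, with -0.64, -0.57 and 0.33 on 3 arrays (limma adjusted p = 0.486), and its replicates disagreed in sign. Without replicate 1 the count of this list was 4 higher and 0 lower of 15, with Eln and Nid1, a basement membrane protein, added.

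Among 11 matrix proteases, their inhibitors and collagen-processing proteins, 1 rose and 0 fell, with 9 above 0 and a median of 0.31. Timp1, a secreted inhibitor of metalloproteinases, had 0.605, 1.065 and 1.05 (0.91 ± 0.26, limma adjusted p = 0.0105). It was above 0 on all 6 arrays. A2m, the broad protease inhibitor alpha-2-macroglobulin, had the highest mean of all tested probes, with 0.39, 1.28 and 1.245 (0.97), but did not pass (limma adjusted p = 0.093, 4 arrays). Mmp2, the gelatinase that TIMPs restrain, had 0.12, 0.995 and 0.97 (limma adjusted p = 0.058) and Plau, urokinase, was lowest with -0.19, -0.12 and -0.03. Without replicate 1 the count was 4 of 11 higher, with Mmp2, Mmp23 and the collagen chaperone gene Serpinh1 added. Proximal tubule markers moved the opposite way between the replicates: their list median was 0.26 in replicate 1, -0.44 in replicate 2 and -0.35 in replicate 3, while that of the collagens was 0.45, 0.91 and 0.98. Whether a different share of cortex in the samples contributed was not tested, and fewer cells of a type cannot be told apart from less RNA per cell.

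The promoter of Timp1 is shown because Timp1 had the highest mean of the called genes with a promoter in the RefSeq table (assembly GRCr8). The table matched 26 of the 36 named called genes, and Col1a1, Col2a1, Col3a1, Clu, Csnk2b, Ets1, Mgp, Prkcb, Tagln and Clec10a had no entry. The 250 bases before the start of Timp1 lie at chrX:3771123-3771372 on the minus strand, printed 5′ to 3′ with matches to the AP-1 core TGAGTNA, searched on both strands, in capitals.
Timp1: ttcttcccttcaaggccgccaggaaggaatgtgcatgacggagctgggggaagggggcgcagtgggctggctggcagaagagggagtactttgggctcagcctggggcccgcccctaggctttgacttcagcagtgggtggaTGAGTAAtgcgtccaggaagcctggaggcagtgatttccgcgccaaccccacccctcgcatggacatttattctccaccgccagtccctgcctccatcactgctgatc
The single match lies on the printed strand. The core occurs in the upstream 250 bases of 11.8% of the 33469 promoters in the table and of 5 of the 26 matched called genes, Copb1, Cyba, Gcgr, Mt2A and Timp1. The first share counts promoters and the second counts genes. A gene with several promoters, such as Gcgr, counted if any of them matched, so the shares are not strictly alike. A match describes letters and does not show that a factor binds there.

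Muscle and filament genes were higher in part. Tagln, the actin-binding transgelin of smooth muscle, had 0.305, 0.945 and 0.855 (0.70 ± 0.35, limma adjusted p = 0.0105). Tnnt2, troponin T of heart muscle, had 0.43, 0.61 and 0.655 (0.56 ± 0.12, limma adjusted p = 0.0105). Both were above 0 on all 6 arrays. Acta2, the actin of vascular smooth muscle, had 0.00, 0.045 and 0.22 and Actc1, cardiac actin and the lowest of the list, 0.03, 0.01 and 0.01, and neither passed. Of the 8 muscle genes measured 2 rose, 0 fell and all 8 had a mean above 0, with a median of 0.30 that was 0.03 in replicate 1, 0.38 in replicate 2 and 0.53 in replicate 3. Without replicate 1 the tropomyosin gene Tpm2 passed too, and the median was 0.46. Of 13 cytoskeleton genes 2 rose and 0 fell, with a median of 0.20. These were Tmsb10, a thymosin that binds actin monomers, with 0.435, 0.51 and 0.54 (limma adjusted p = 0.0105), and Vim, the filament vimentin of mesenchymal cells, with 0.20, 0.425 and 0.485 (limma adjusted p = 0.0264). The forward arrays of Tmsb10 gave 0.65 and its dye-swap arrays 0.34. Add3, an adducin of the membrane skeleton, was lowest with -0.32, -0.425 and 0.55 and did not pass. The light chain gene Myl12b was tested by 2 probes, with means of 0.15 and 0.29, and neither passed.

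Injury and immune genes were above 0 more often than called. Clu, the secreted chaperone clusterin that rises in injured tubules, had 0.315, 0.75 and 1.07 (0.71 ± 0.38, limma adjusted p = 0.0105). Its lowest value was in replicate 1 and its highest in replicate 3. Cp, the copper ferroxidase ceruloplasmin, had 0.19, 0.42 and 0.41 (limma adjusted p = 0.0483). Of 11 complement, acute phase and injury genes these 2 rose and 0 fell, with a median of 0.16. Agt, angiotensinogen, was lowest with 0.10, -0.375 and -0.345 (limma adjusted p = 0.431). Of 9 leukocyte and antigen presentation genes 0 were called by limma, 4 had an unadjusted p under 0.05, all of them higher, and the median was 0.22. Without replicate 1, RT1-Ba, a class II chain, passed (limma adjusted p = 0.0486). B2m, the light chain of class I molecules, was highest with values in all replicates at 0.215, 0.415 and 0.60 (limma adjusted p = 0.093), and Lyz2, the lysozyme of macrophages and neutrophils, ran from 0.73 in replicate 1 to -0.87 in replicate 3. Outside that list, RT1-DMa, which loads peptides on class II molecules, had 0.35, 0.335 and 0.355 (limma adjusted p = 0.0477), and Clec10a, a macrophage lectin, had 0.46 and 0.64 on 2 arrays with no value in replicate 1 (limma adjusted p = 0.0369). The call on Clec10a rests on 1 array per replicate.

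Several signalling genes rose. Csnk2b, the regulatory subunit of casein kinase 2, had 0.395, 0.86 and 0.915 (0.72 ± 0.29, limma adjusted p = 0.0105), and Prkcb, protein kinase C beta, had 0.55, 0.635 and 0.635 (0.61 ± 0.05, limma adjusted p = 0.0105). The forward arrays of Prkcb gave 0.77 and its dye-swap arrays 0.44, a gap that the SD of its averaged replicates does not show. Csnk2b and Prkcb were the 2 called of 24 kinase genes, whose median was 0.03. Rps6kb1, a ribosomal S6 kinase, was lowest with -0.37, 0.07 and -0.66 on 3 arrays and did not pass. Galr2, a galanin receptor, had 0.605, 0.66 and 0.785 (0.68 ± 0.09, limma adjusted p = 0.0144). The little spread among these averages hides a gap between arrays, 1.00 forward and 0.21 dye-swap in replicate 1. Over the replicates the forward arrays of Galr2 gave 0.89 and its dye-swap arrays 0.48. Glp1r, the receptor for the gut hormone GLP-1, had 0.46, 0.54 and 0.40 (limma adjusted p = 0.0238) on 4 arrays. Gcgr, the related glucagon receptor, went the other way, with -0.215, -0.575 and -0.495 (-0.43 ± 0.19, limma adjusted p = 0.0238). These 3 were the called members of 9 receptors measured, and Glp1r lost its call without replicate 1.

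Further named genes rose outside the lists. Tsc22d1, a leucine zipper protein responsive to TGF-beta, had 0.42, 0.42 and 0.58 (0.47 ± 0.09, limma adjusted p = 0.0105). Nr2f6, an orphan nuclear receptor, had 0.25, 0.39 and 0.40 (limma adjusted p = 0.039), and Ceacam4, of the carcinoembryonic antigen family, had 0.33, 0.475 and 0.53 (limma adjusted p = 0.039). Tsc22d1, Nr2f6 and Ceacam4 were above 0 on every array that held a value. One called probe, number 527, has no gene symbol and had 0.72, 0.49 and 0.385 (limma adjusted p = 0.0105), highest in replicate 1.

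Redox and metal genes moved in both directions. Mt2A, a metallothionein that binds zinc and copper, had 0.48, 0.59 and 0.335 (0.47 ± 0.13, limma adjusted p = 0.0162), and its forward arrays gave 0.67 and its dye-swap arrays 0.105. Cyba, the membrane subunit of NADPH oxidase, had 0.60, 0.335 and 0.21 (0.38 ± 0.20, limma adjusted p = 0.039), highest in replicate 1. Aldh1a1, which oxidises retinaldehyde, had -0.26, -0.22 and -0.315 (limma adjusted p = 0.0414) and was below 0 on all 6 arrays. With Cp, 3 of 27 genes of this list rose and 1 fell, and the median was -0.02. Without replicate 1, Cyba and Aldh1a1 lost their calls and Hmox1 and Akr7a3 passed (limma adjusted p = 0.0486 for both). Hmox1, the inducible heme oxygenase, had the highest mean of the list with 0.25, 0.645 and 0.58 but did not pass (limma adjusted p = 0.062, 4 arrays), and Akr7a3, an aldehyde reductase, the lowest with 0.005, -0.825 and -0.85 (limma adjusted p = 0.165).

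The promoter of Mt2A is shown because metallothionein genes are the textbook case of metal response elements in a proximal promoter. Its 250 bases before the start lie at chr19:10838709-10838958 on the minus strand (RefSeq, GRCr8), printed 5′ to 3′ with matches to the element's core, TGCACNC or TGCGCNC on either strand, in capitals.
Mt2A: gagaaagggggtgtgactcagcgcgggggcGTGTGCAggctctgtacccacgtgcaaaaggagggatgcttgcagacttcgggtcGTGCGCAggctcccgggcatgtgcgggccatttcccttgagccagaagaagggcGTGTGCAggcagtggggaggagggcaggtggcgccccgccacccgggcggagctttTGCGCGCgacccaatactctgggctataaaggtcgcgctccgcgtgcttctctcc
It holds 4 matches, 1 on the printed strand and 3 on the other, none overlapping another. At least 1 match occurs in 20.6% of all 33469 promoters, in the same window, and at least 4 in 0.266%. Among the 26 matched called genes 8 had at least 1 match, and among the 14 of them that rose 4 did. Here too a gene with several promoters counted if any of them matched, while the percentages count promoters. The matches are a description of the sequence and no measure of metal or of factor binding in these samples.

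The genes lower on HS included a lactate transporter, a fatty acid enzyme, an inositol enzyme and a pair of transaminases, each 1 or 2 of a longer list. Slc16a7, a transporter of lactate and pyruvate, had -0.265, -0.76 and -0.41 (-0.48 ± 0.25, limma adjusted p = 0.0258). It was below 0 on the 5 arrays that held a value and was the 1 called of 11 carriers, whose median was -0.01. Acsl1, which activates long-chain fatty acids, had -0.255, -0.58 and -0.33 (-0.39 ± 0.17, limma adjusted p = 0.0105). Of 24 genes of fatty acid activation and oxidation it was the 1 called, while 22 of the 24 had a mean below 0 and the list median was -0.15. Without replicate 1, Amacr and Echs1, an enzyme of beta-oxidation, passed as well, for 3 lower of 24. In replicates 1, 2 and 3 the median of this list was -0.09, -0.19 and -0.16. Amacr, a racemase of branched-chain fatty acids, had the lowest mean with -0.055, -0.745 and -0.795 (limma adjusted p = 0.095), and Acads, a short-chain dehydrogenase, the highest with 0.39, -0.065 and -0.105.

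Both called amino acid genes encode transaminases. Got1, the cytosolic aspartate transaminase, had -0.395, -0.275 and -0.315 (-0.33 ± 0.06, limma adjusted p = 0.0286), and Bcat2, the mitochondrial branched-chain transaminase, had -0.33, -0.345 and -0.26 (-0.31 ± 0.05, limma adjusted p = 0.0165). Both were below 0 on all 6 arrays, with replicate 1 as low as the others, and Got1 lost its call without replicate 1 (limma adjusted p = 0.0755). Bcat1, the cytosolic branched-chain enzyme, was highest in the list with 0.455, 0.60 and 0.525 but did not pass (limma adjusted p = 0.062), and Kmo, of the kynurenine pathway, lowest with 0.23, -0.635 and -0.615. Of the 30 amino acid and urea genes 2 fell, 0 rose and 24 had a mean below 0, with a median of -0.15. The list median was 0.06 in replicate 1, -0.28 in replicate 2 and -0.22 in replicate 3, the pattern of the proximal tubule markers, whose part in it was not tested.

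Isyna1, the enzyme that makes inositol from glucose phosphate, had -0.575, -0.275 and -0.515 (-0.46 ± 0.16, limma adjusted p = 0.0148). Its dye-swap arrays gave -0.71 and its forward arrays -0.20. It was the 1 called of 4 osmolyte genes, all with means below 0, and without replicate 1 it did not pass (-0.40, limma adjusted p = 0.0509). Akr1b1, the aldose reductase that makes sorbitol, had -0.31, 0.215 and -0.015, the highest mean of the 4, and did not pass. Sord, which converts sorbitol, had -0.065, -0.625 and -0.605 in SS and a mean of -0.43 in strain 13 as well.

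The other genes that fell had varied roles, and 4 of them, Dnase1, Tmbim6, Vegfa and Pcsk6, did not pass without replicate 1 (limma adjusted p from 0.052 to 0.0861). Dnase1, a secreted nuclease of the kidney, had -0.415, -0.59 and -0.54 (-0.52 ± 0.09, limma adjusted p = 0.039) and was below 0 on all 6 arrays. Tmbim6, the endoplasmic reticulum protein known as Bax inhibitor 1, had -0.68, -0.27 and -0.70 (-0.55 ± 0.24, limma adjusted p = 0.0162), but only 4 arrays held a value and the single dye-swap array gave 0.14. Vegfa, the endothelial growth factor, had -0.445, -0.55 and -0.235 (-0.41 ± 0.16, limma adjusted p = 0.0385). Its 3 forward arrays gave -1.11, -1.21 and -0.57 and its 3 dye-swap arrays 0.22, 0.11 and 0.10, so that its sign depended on the orientation. Ets1, a transcription factor, had -0.155, -0.43 and -0.58 (limma adjusted p = 0.0411), and Copb1, a coat protein of Golgi vesicles, had -0.235, -0.285 and -0.405 (limma adjusted p = 0.0385). Each of these had 1 forward array above 0, at 0.16 and 0.17 in replicate 1. Pcsk6, a proprotein convertase, had -0.395, -0.335 and -0.185 (-0.31 ± 0.11, limma adjusted p = 0.0314) and was below 0 on all 6 arrays. Among 11 growth factors and cytokines Vegfa was the 1 called, the median was -0.13 and 4 had an unadjusted p under 0.05, all lower. Igfbp2, which binds insulin-like growth factors, had the highest mean of those with 3 values at 0.17.

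No gene of the tubule segment lists was called by limma with all 3 replicates, although their means lay mostly below 0. Egf was called without replicate 1 (-0.40, limma adjusted p = 0.0354), and with arrays scaled to equal spread 2 of the 3 thick ascending limb and distal tubule genes were. All 3 measured genes of the thick ascending limb and distal tubule had unadjusted p-values under 0.05. Egf, which the distal tubule makes in quantity, had -0.145, -0.465 and -0.325 (limma adjusted p = 0.0502), Umod, the secreted uromodulin, -0.24, -0.23 and -0.285 (limma adjusted p = 0.062), and Slc12a1, the sodium-potassium-chloride cotransporter, -0.245, -0.19 and -0.265 (limma adjusted p = 0.152). These 3 genes were below 0 in every replicate, replicate 1 included, and their list median was -0.25. Of 6 collecting duct genes all had means below 0, with a median of -0.15 and 1 unadjusted p under 0.05. Sgk1, a kinase induced by steroids, was lowest with -0.24, -0.20 and -0.195 (limma adjusted p = 0.309), and Fxyd4, a regulator of the sodium pump, highest with -0.09, 0.10 and -0.10. The 8 sodium pump and other ATPase genes had a median of 0.00, with Fxyd1 highest at 0.14 and Atp1b3 lowest at -0.07, and no unadjusted p under 0.05.

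No gene of the blood pressure lists was called by limma. Of 7 genes of steroid metabolism and steroid receptors 0 were called by limma, 4 had an unadjusted p under 0.05, all lower, and the median was -0.15. Pgrmc1, a heme-binding membrane protein, was lowest with -0.13, -0.215 and -0.275, and Sts, steroid sulfatase, highest with -0.08, 0.005 and 0.07. Of 8 genes of nitric oxide, guanylate and prostanoid signalling 0 were called and 1 in each direction had an unadjusted p under 0.05. Gucy1a1, a subunit of the nitric oxide receptor, was highest with 0.13, 0.39 and 0.69 (limma adjusted p = 0.181), and Arg2, mitochondrial arginase, lowest with -0.08, -0.365 and -0.56 (limma adjusted p = 0.162). For the renin, angiotensin, kinin and natriuretic peptide genes 0 of 6 were called and 0 had an unadjusted p under 0.05, with a median of -0.03. Npr2, a natriuretic peptide receptor, was highest of those with 3 values at 0.08 and Agt lowest at -0.21.

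Markers of the proximal tubule and cortex split the replicates. Of the 14 measured, 13 were above 0 in replicate 1, 2 of 13 in replicate 2 and 0 of 14 in replicate 3, with medians of 0.26, -0.44 and -0.35. Cyp2c23, an arachidonic acid epoxygenase, was lowest with 0.10, -0.745 and -0.72 (limma adjusted p = 0.288), and Fbp1, a gluconeogenic enzyme, highest with 0.235, 0.305 and -0.085. Lrp2, the endocytic receptor megalin, had 0.415, -0.46 and -0.595. None of the 14 was called by limma and 1, lower, had an unadjusted p under 0.05. The P450 and drug enzyme list, with which it shares members, had the same order of medians, 0.10, -0.23 and -0.24, and 0 of 16 called. Endothelial, red cell and platelet, and fat cell markers had medians of 0.07 (2 genes), -0.06 (4 genes) and -0.03 (4 genes), with 0 called by limma and 1 unadjusted p under 0.05, in the red cell list. Kdr, the VEGF receptor of endothelium, had -0.03, 0.085 and 0.055. Vcam1, an adhesion molecule of activated endothelium, had -0.105, 0.15 and 0.275. In the red cell list Slc4a1, the anion exchanger, was lowest at -0.11 and Hba-a1, alpha globin, highest of those with 3 values at -0.05. In the fat cell list Fabp4, a fatty acid carrier, was lowest at -0.07 and Slc2a4, the insulin-responsive glucose transporter, highest at -0.01.

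**Figure D3:**
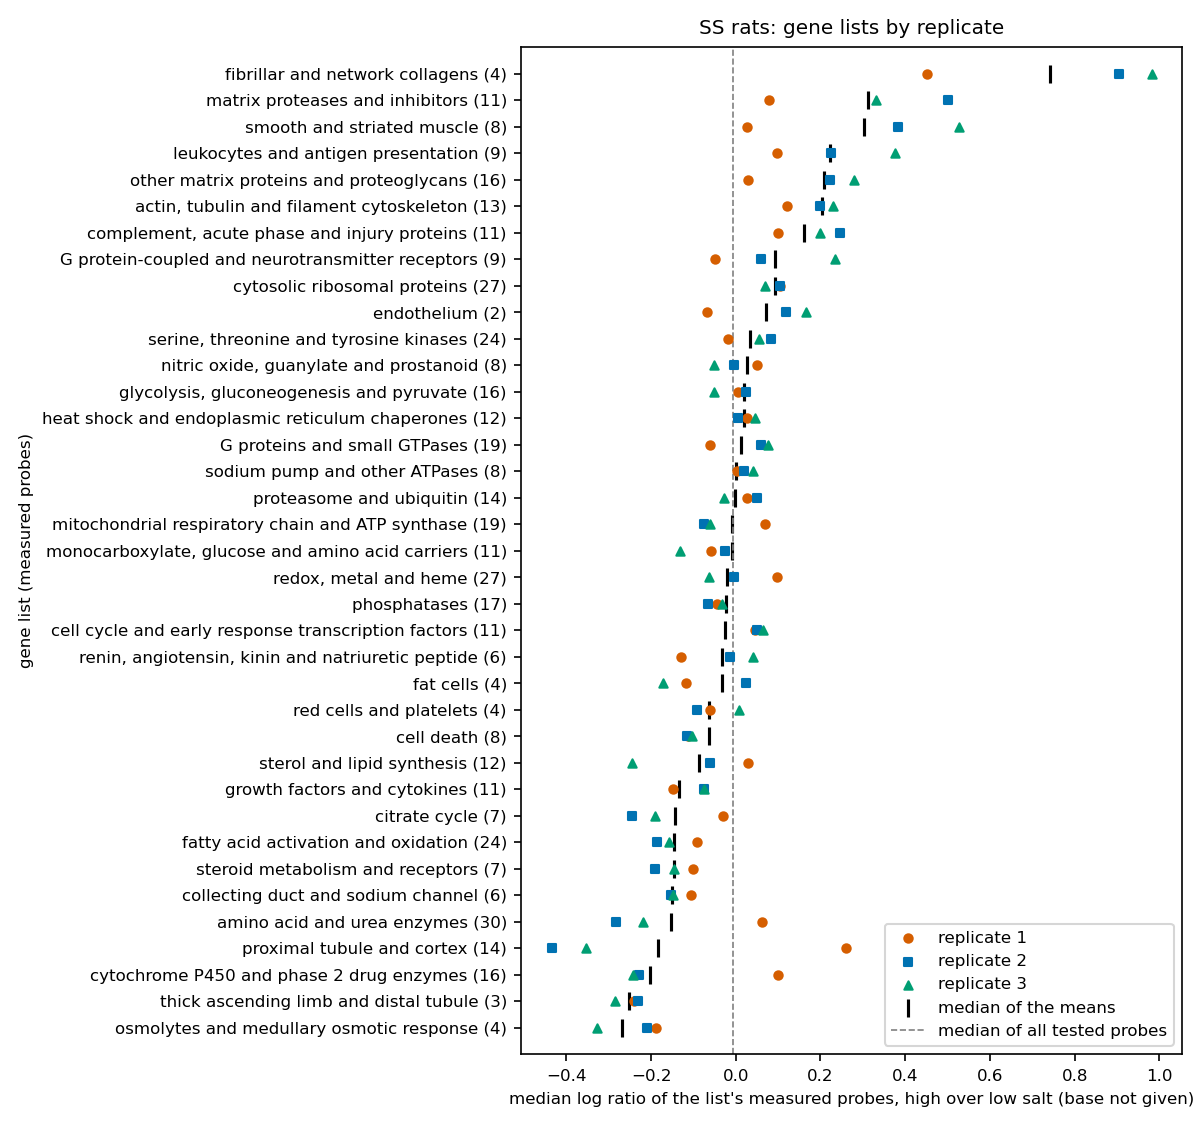
Median log ratio of high over low salt (base not given) of the measured probes of 37 gene lists, in each SS replicate (coloured) and over the replicate means (black tick), with the number of measured probes in brackets and the median of all tested probes as a dashed line. The collagen list lies highest at 0.74, and the proximal tubule list has replicate 1 at 0.26 and the other replicates at -0.44 and -0.35.

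The ribosomal, respiratory chain and citrate cycle lists had medians that differed between array orientations. The 27 cytosolic ribosomal protein genes had a median of 0.09 with 23 above 0 and 0 called by limma (6 unadjusted p under 0.05, all higher), but the median was 0.27 on forward arrays and -0.02 on dye-swap arrays. Rpl31 was highest with 0.215, 0.19 and 0.225 (limma adjusted p = 0.097) and Rpl5 lowest with -0.13, -0.10 and 0.09. The 19 genes of the respiratory chain and ATP synthase had a median of -0.01, which was 0.15 on forward and -0.15 on dye-swap arrays. Their highest and lowest means were those of 2 subunits of the same enzyme, ATP synthase, Atp5f1b at 0.16 and Atp5f1c at -0.18, and 0 were called by limma, with 1 unadjusted p under 0.05 in each direction. The 7 citrate cycle genes had means below 0 and a median of -0.14, with 0.02 on forward and -0.24 on dye-swap arrays. Aco1, cytosolic aconitase, was lowest at -0.24 and Mdh2, mitochondrial malate dehydrogenase, highest at -0.01. For the collagens the orientations gave 0.79 and 0.72.

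Of the 37 called probes, 27 had values on all 6 arrays and 24 of these had 1 sign on all 6. Forward and dye-swap means had the same sign for 35 of 37, the exceptions being Vegfa and Tmbim6. The 37 were chosen on the averages of these arrays, which fixes part of these sign counts. Over all probes with values on both arrays, the orientations had the same sign for 41.9%, 61.2% and 62.1% in replicates 1 to 3. Of the 24 higher probes 22 had a larger mean on the forward arrays, and of the 13 lower probes 8 did. The share over all tested probes is not given here. With forward arrays alone 118 probes were called and with dye-swap arrays alone 62, of which 28 and 20 were among the 37.

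**Figure D4:**
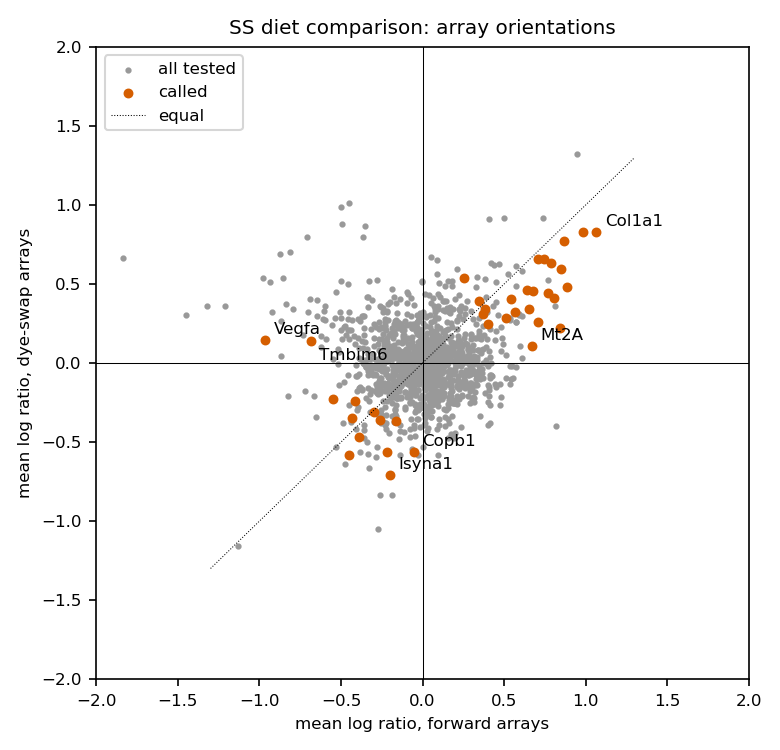
Mean log ratio of high over low salt (base not given) on the forward arrays against that on the dye-swap arrays of SS rats, for all tested probes (grey) and the 37 called probes (orange), with a dotted line of equality. Col1a1 lies high on both axes, and Vegfa and Tmbim6 are the called probes whose orientations differ in sign.

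The same diets in strain 13 gave 0 of 1287 probes called by limma (0%) and 119 (9.25%) with an unadjusted p under 0.05. For the 37 called probes, all 24 higher ones had a larger mean in SS than in strain 13 and all 13 lower ones a smaller one. The 37 were chosen on their SS values, which fixes part of this. The replicate values of SS and strain 13 did not overlap for 26 of the 37, against 181 of the 1249 probes (14.5%) with at least 2 replicates in both strains. The choice of the 37 on their SS values fixes part of this count too, so the shares are not alike. Col1a1 had 0.095, 0.345 and 0.535 in strain 13 and Timp1 0.095, 0.41 and 0.345, so that both genes had positive values in every replicate of both strains. Csnk2b had -0.30, 0.255 and 0.24 in strain 13 and Galr2 -0.28, 0.445 and 0.30, with replicate 1 of strain 13 below 0.

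The difference of the diet log ratios, SS minus strain 13, was tested directly. By limma 0 of 1249 probes (0%) passed, the lowest adjusted p was 0.308, and 105 (8.41%) had an unadjusted p under 0.05. The 5 lowest p-values, all with limma adjusted p = 0.308, belonged to Pcsk6, Acsl1, Slc16a7, Csnk2b and 1 probe with no symbol. Pcsk6 had 0.095, 0.125 and 0.125 in strain 13, a difference of -0.42 (95% confidence interval -0.62 to -0.22). Acsl1 had 0.00, 0.095 and 0.035 in strain 13, a difference of -0.43 (-0.64 to -0.22). Slc16a7 had 0.19, 0.005 and -0.045, a difference of -0.53 (-0.83 to -0.22), and Csnk2b differed by 0.66 (0.27 to 1.04). The unnamed probe, number 1846, differed by 0.70. None of these intervals is adjusted for the number of probes, and on the diet arrays no single gene passed the test of a difference between the strains. With the strain arrays added, as the mean of both estimates, 5 probes were called, Acsl1, Pcsk6, Tnnt2, Slc16a7 and Csnk2b. That fit takes the diet and strain pairs as independent, while deviations from the group means in SS diet pairs and in the strain pairs on HS of the same number correlated at -0.63, -0.56 and -0.29, so its p-values may be too small.

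**Figure D5:**
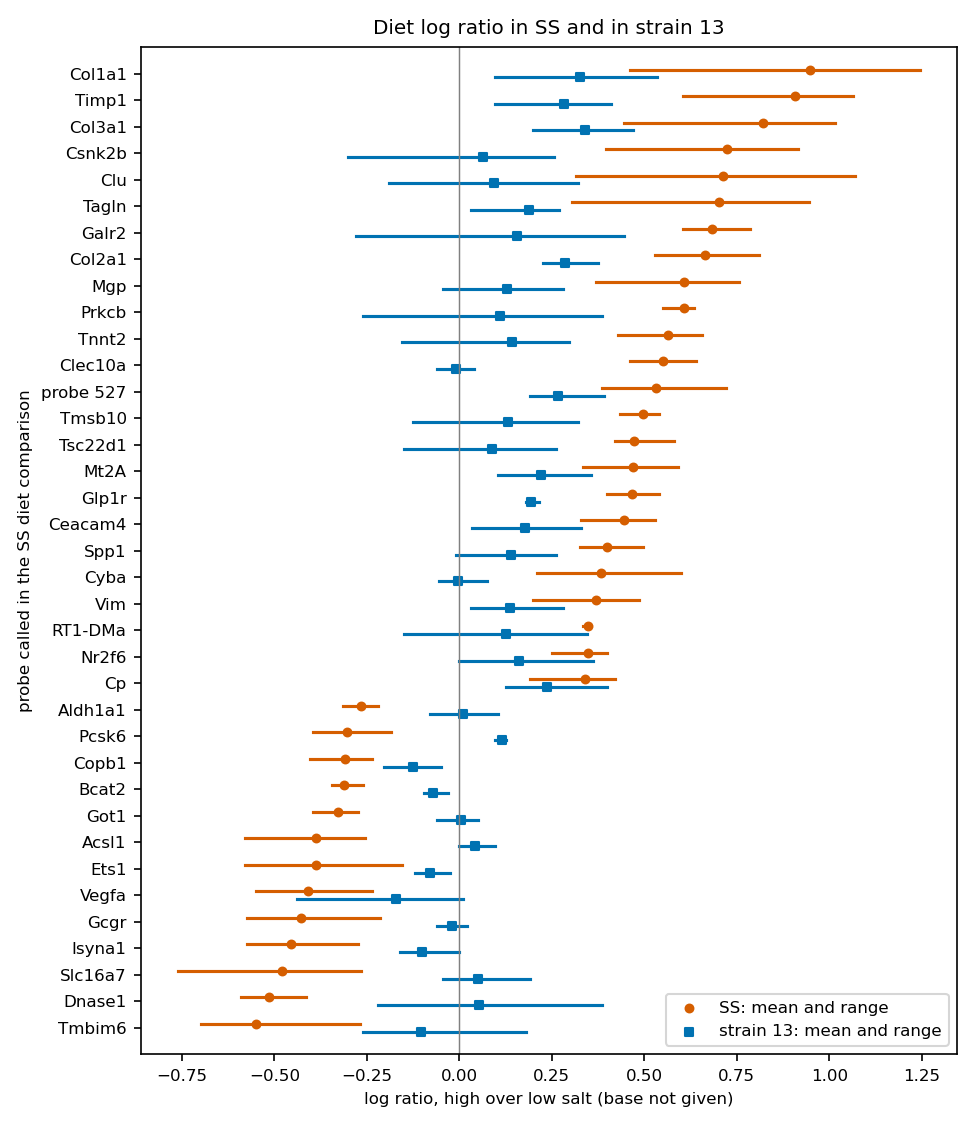
Mean (point) and range over replicates (line) of the log ratio of high over low salt (base not given) for the 37 probes called in SS, in SS (orange circles) and strain 13 (blue squares). The ranges overlap for Col1a1 and Col3a1 and do not for Timp1, Pcsk6 or Acsl1.

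At the threshold, RT1-DMa (limma adjusted p = 0.0477) and Cp (0.0483) lay just inside. Just outside, 10 probes shared a limma adjusted p of 0.0502. Higher were Mmp23, a metalloproteinase, with a mean of 0.58, Cdk1, a kinase of cell division, with 0.40, Serpinh1 with 0.36, Spink1l with 0.36, Tspan8, a tetraspanin, with 0.33, Nid1 with 0.28 and the unnamed probes 43 and 1846 with 0.64 and 0.52. Lower were Egf with -0.31 and Ppp1r1a, a phosphatase inhibitor, with -0.32. Serpinh1 had 0.19, 0.505 and 0.385.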

How the data were processed

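Kidney RNA was compared on 2-colour cDNA arrays. The deposited table holds log ratios, 1 column per array, which were taken as already turned to a common channel order. The labels do not record that step, and forward and dye-swap arrays correlated below 0 across probes in 6 of 12 RNA pairs, SS replicate 1 lowest at -0.264. The base is not given in the sources used here, although the analysis plan assumed log ratios of a known scale, and background correction, spot filters and normalization are likewise not given in the sources used here. Intensities were not analysed here. Of 3502 probe IDs, 1561 held values. Names came from the platform annotation brought up to date with RefSeq (GRCr8), which gave 1311 probes 1 current symbol. Another 5 kept an older symbol, 22 matched several genes and 223 none.

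Arrays of a replicate were averaged without rescaling. limma 3.58.1 in R 4.3.3 (lmFit, eBayes with the variance prior over the whole table) fitted the means of 4 comparisons to 12 RNA pairs, and tested means against 0 and their difference, two-sided, with Benjamini-Hochberg adjustment at 0.05 over all probes with at least 2 replicates. Tested on simulated data with 200 changed probes in 10 datasets, the SS fit over 1310 probes called 54% of log ratios of 0.3, 84.4% of 0.5 and 0.523% of unchanged probes. The simulated noise was independent between probes and between RNA pairs, which the data were not. These rates may therefore not hold for the data. The main fit and its test of the difference between strains did not pair groups by replicate number, which entered as a block only in alternatives. Same-numbered deviations of the SS and strain 13 diet pairs correlated at 0.213, 0.169 and 0.209 over 1107 probes. Those of the SS diet and HS strain pairs correlated at -0.63, -0.56 and -0.29, and the fit treats the 4 comparisons as independent.

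Named genes are every called probe with a symbol, the highest and lowest members with 3 values of each list described, and the 5 lowest p of the difference between strains. Genes, members and lists were chosen with earlier results of these data known. Alternatives covered replicates, orientation, scaling, centring, missing values, blocks and the variance estimate. Figures were drawn with matplotlib 3.10.9.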

Additional observations from a re-analysis of the deposited data

Results flagged for a closer look

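Pcsk6, a proprotein convertase, was below 0 in all 3 SS replicates and above 0 in all 3 strain 13 replicates. The difference of its diet log ratios, SS minus strain 13, was -0.42. Its test did not pass (limma adjusted p = 0.308 over 1249 probes). Only the called probes were looked through for such opposite signs, and they were chosen on their SS values. The share over all tested probes is not given here. In SS, Pcsk6 lost its call without replicate 1 (limma adjusted p = 0.0861).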

How the results depend on the processing

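The count of 37 called probes (24 higher, 13 lower) depended on the fit and on replicates 2 and 3. It ranged from 0 to 57 when 1 SS replicate was left out (0 to 40 higher, 0 to 17 lower), the 57 being without replicate 1. It came to 0 for the SS replicates alone (204 probes with an unadjusted limma p under 0.05; 0 higher, 0 lower) and 5 for the diet pairs alone (5 higher, 0 lower). Counts rose to 60 without the array whose title conflicts (40 and 20), 118 with forward arrays alone (74 and 44), 62 with dye-swap arrays alone (34 and 28), 61 with both orientations required (39 and 22) and 58 over probes with a value in every pair (36 and 22). With arrays scaled to equal spread 55 were called, 20 of them lower. Settings chosen after seeing the data gave 1 with the dye-swap array of replicate 1 turned (1 higher, 0 lower), 61 without its forward array (34 and 27), 52 without its dye-swap array (40 and 12) and 51 with the variance prior from tested probes. Centring, a minimum of 1 replicate, the ordinary test and robust eBayes gave 34, 35, 38 and 47. The replicate block gave 31, of which 28 were among the 37, and changed no count by over 1.5 times. For the difference between strains it gave 0, as it did over the diet pairs alone, and the mean of diet and strain estimates gave 5. Vegfa turned its sign, to 0.14 on dye-swap arrays, where Tmbim6 was not tested (1 array, 0.14). Col2a1 passed in 17 of 20 alternatives, Timp1 and Col3a1 in 16, and RT1-DMa in 6. Col2a1 had no value on the dye-swap array of replicate 1, so turning or leaving out that array did not change its values. The cause of these changes was not tested. Intensities are not used here, so signal over background is unknown.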

Other observations

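The called genes Csnk2b, Galr2, Prkcb, Tnnt2, Tmsb10 and Tsc22d1, 6 in all and in no single list, were chosen after their values were seen because their profiles looked alike. Over the 12 RNA pairs of all comparisons their pairwise correlations ran from 0.923 to 0.989 (median 0.961), and over the 9 RNA pairs outside the SS diet comparison from 0.824 to 0.988 (median 0.922), against a median of 0.00 over the 1006 tested probes with a value in every pair. High correlations were not particular to them. Over the 12 RNA pairs the median was 0.85 among 22 called higher probes, these 6 included, and 0.794 among the 13 called lower. For Col1a1, Col3a1 and Timp1 it was 0.963. The called probes were chosen on their SS values, which are among these RNA pairs and fix part of these medians. For the called sets and these collagen and Timp1 probes, medians outside the SS diet comparison are not given here. The probes share arrays, and no test was made. Prkcb had -0.26, 0.385 and 0.205 and Tsc22d1 -0.15, 0.26 and 0.155 in the strain 13 replicates, so replicate 1 of strain 13 was low in both.

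By chromosome, 5 of the 13 lower genes, Got1, Bcat2, Pcsk6, Copb1 and Aldh1a1, lie on chromosome 1, which holds 146 of the 1101 tested probes with a chromosome (13.3%), and 2 of the 23 higher genes do. Of 30 tested probes on chromosome 13, the chromosome by which strain 13 differs from SS, Tnnt2 was the 1 called. No test was made of either count.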
